A study of Brassica napus with 33 samples.

Results

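The unplaced small RNAs of 21 nt were the entries of the small RNA (sRNA) count table that held an RNA sequence of exactly 21 bases in place of a position on the Express617 assembly. There were 1713 such sequences among 10201 unplaced sequences of 18 to 36 bases, and among 101261 entries in all, of which the other 91060 were sRNA clusters with a position. They are called here Useq_1 to Useq_1713, in the order of their total count over 33 libraries of *Brassica napus* (oilseed rape). How the sequence entries were made, and why they lacked a position, is not given in the sources used here.

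The study compared Express617, a winter-type inbred line used as the seed parent, with G3D001, a semi-winter, semi-synthetic inbred line used as the pollen parent, and with their offspring. F1 was the hybrid between them, and its ovules came from selfing. F0 was an Express617 ovule pollinated with G3D001, so the pod and the seed coat around it were those of Express617. Leaves were taken at BBCH16, when 6 leaves had unfolded, as pools of 7 plants per replicate, from Express617, G3D001 and F1. Ovules were taken 15 days (OS15) and 30 days (OS30) after pollination, as pools of 4 ovules per replicate, from these 3 and from F0. Each of the 11 groups had 3 replicates from field-grown plants, without any further treatment. In such bulk tissue, fewer cells that carry a sequence and less of it per cell cannot be told apart. The table holds no messenger RNA, so leaf and ovule could not be checked against marker genes.

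Plant sRNAs are cut from longer RNAs by Dicer-like enzymes and loaded into Argonaute proteins, which they guide to matching RNA or DNA. The 21-base class holds most microRNAs, cut by DCL1, and the small interfering RNAs cut by DCL4 from double-stranded RNA, both of which act mostly on other RNAs. The related DCL2 makes sRNAs 1 base longer, and DCL3 makes the 24-base class that directs DNA methylation at repeats and is abundant in developing seeds. The first base influences which Argonaute takes up an sRNA, with U favoured by AGO1, A by AGO2 and AGO4 and C by AGO5. Pieces of other RNAs, such as transfer RNA (tRNA), can have the same length, and mature tRNAs end in CCA, which is added after transcription.

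Levels are given as CPM, the count of a sequence relative to the counts in clusters with a position, scaled to 1000000, and these ranged from 12635700 to 27070031 per library. A single count was therefore worth well under 1 CPM in every library. The members summed to 0.453 to 7.81% of the cluster counts, and a library held counts for 466 to 1358 of the 1713. Total counts per member over all libraries ran from 347 to 446800 with a median of 785, and the 10 most counted held 31.4% of the 5550820 counts. The labels give replicates but not how they were separated in the field, so p-values measure the spread between these samples.

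The libraries stood apart in their 21-nt sequences in a way that genotype and stage did not follow. In Express617 ovules at OS30 the members summed to 10069 CPM, 11291 CPM and 78062 CPM in replicates 1, 2 and 3. In F1 ovules at OS15 they summed to 5198 CPM, 14310 CPM and 5708 CPM. Replicate 3 of Express617 at OS30 and replicate 2 of F1 at OS15 were well above the other libraries of their groups. In F1 ovules at OS30, replicate 2 was again the highest, with sums of 6256 CPM, 13059 CPM and 6056 CPM. Sums in the 9 leaf libraries lay between 4783 CPM and 8169 CPM, and sums in G3D001 ovules lay between 4533 CPM and 7158 CPM, so no leaf and no G3D001 library reached these levels.

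**Figure D1:**
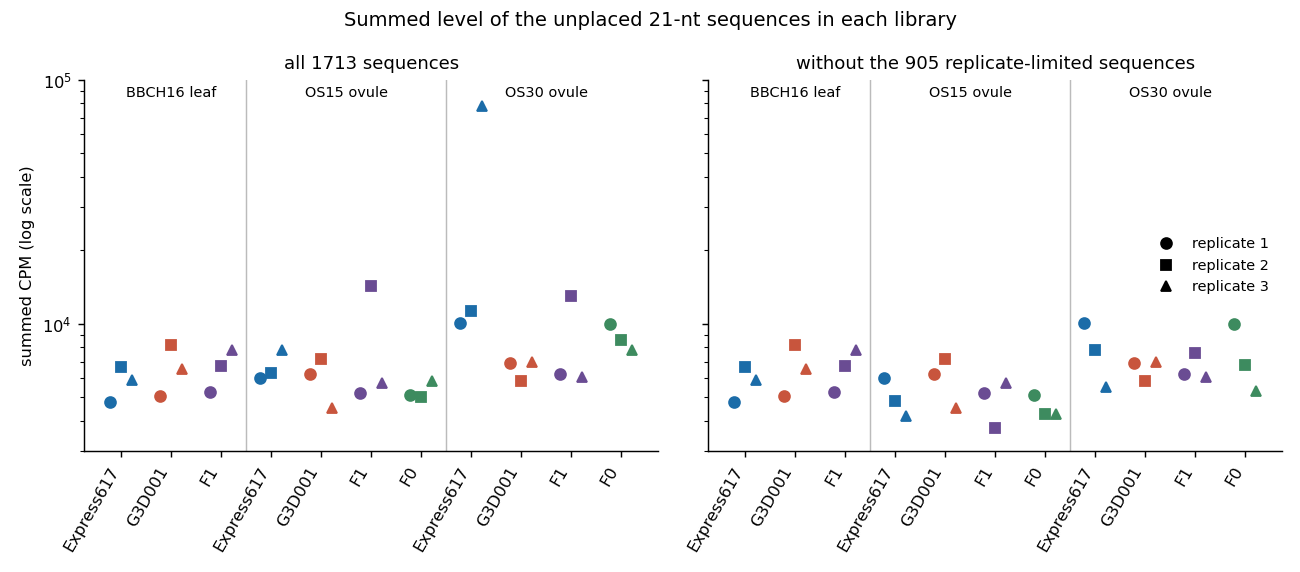
Summed CPM of the 1713 unplaced 21-nt sequences in each of the 33 libraries (log axis), by stage and genotype, with all members on the left and without the 905 replicate-limited ones on the right. Each point is 1 library and its shape the replicate number. Express617 replicate 3 at OS30 stands at 78062 CPM, and F1 replicate 2 is the highest of its group at both ovule stages.

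The members fell into a few patterns of presence over the libraries, and the high sums came from 1 of them. Each of the 1713 was put in 1 group by a description of where at least 99% of its CPM lay, chosen after the values were seen and so given without a test. The largest group, 905 members or 52.8%, had at least 99% of its CPM in 10 ovule libraries. These were replicates 2 and 3 of Express617, replicates 2 and 3 of F0 and replicate 2 of F1, each at both OS15 and OS30. Another group, of 313 members (18.3%), was counted in every library. A further group, of 185 members (10.8%), had at least 99% of its CPM in the ovules of G3D001 and F1 and a count in every G3D001 ovule library. There were 69 leaf members, 85 members of other ovule patterns and 156 members that met none of these descriptions.

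The 905 replicate-limited members held 33.7% of all member counts. Their sums at OS15 were 1437 CPM in Express617 replicate 2, 3621 CPM in Express617 replicate 3, 10562 CPM in F1 replicate 2, 741 CPM in F0 replicate 2 and 1555 CPM in F0 replicate 3. At OS30 the same replicate numbers of the same genotypes gave 3506 CPM, 72541 CPM, 5467 CPM, 1863 CPM and 2479 CPM. No other ovule library exceeded 8.90 CPM, and no leaf library exceeded 0.066 CPM. The description uses these 10 libraries, the same replicates at both ovule stages, so the near absence from all other libraries follows from it and is not a result. In the labels each replicate of Express617, G3D001 and F1 has a code of its own that recurs at every stage, and F0 libraries have none. Of these 905 members, 711 were counted in Express617 replicate 3 at OS15 and 888 at OS30, and all 711 were counted at both stages. For F1 replicate 2 the numbers were 649 and 650, with 636 at both. Whether these libraries share plants or a preparation is not given in the sources used here, and its part in the pattern was not tested.

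Useq_8, the most counted of the replicate-limited members, shows the pattern in a single sequence. It was listed at 0 in all 9 leaf libraries. In Express617 ovules its level was 0, 24.8 and 100 CPM at OS15 and 0.227, 77.8 and 4122 CPM at OS30. In F1 ovules it was 0.465, 399 and 0.114 CPM at OS15 and 0, 175 and 0 CPM at OS30. In F0 it was 0, 17.2 and 33.6 CPM at OS15 and 0.0458, 32.3 and 61.5 CPM at OS30. In G3D001 no library exceeded 0.0716 CPM. Within Express617, F1 and F0 its level thus split by replicate at both ovule stages, in the libraries that the description of its group uses.

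The patterns differed in their sequence. Among the 905 replicate-limited members, 46.7% began with U and 33.7% with A, and 363 (40.1%) had a partner among the members on the opposite strand with at least 16 bases paired. Among all 1713 members, 405 had such a partner, so most of them were replicate-limited. Joining members that overlap by at least 16 bases on either strand gave 748 groups, of which 433 were single sequences and the largest held 27. Counted in both orders, pairs of replicate-limited members with the 2-base overhang at the 3' ends that a Dicer cut leaves numbered 72. This was within the 60 to 76 at the other offsets. The members counted in every library were of another kind, with 70.0% beginning with C and 71.2% ending in CCA, and only 2 of these 313 had an opposite-strand partner. The 69 leaf members had the highest GC content, with a median of 66.7% against 52.4% over all members, and 21.7% of them began with G.

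**Figure D2:**
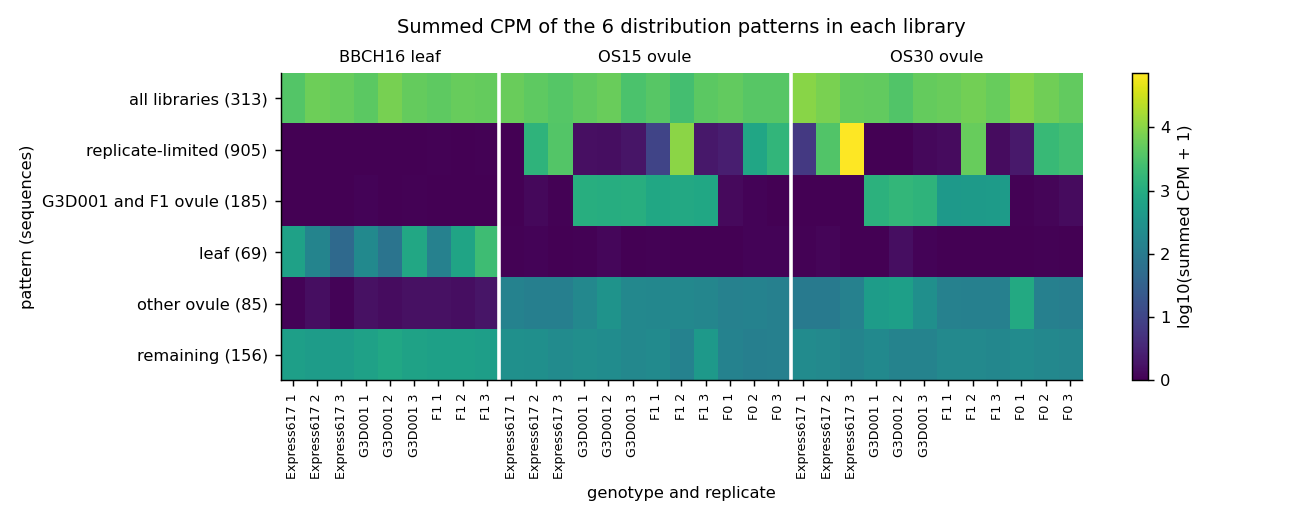
Summed CPM of each group of members in each library, as colour on a log10(CPM + 1) scale, with libraries in order of stage, genotype and replicate. The replicate-limited members reach 72541 CPM in 1 Express617 library at OS30, while the members of the G3D001 and F1 pattern lie in a narrow band within each genotype and stage.

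Sequences ending in CCA were few in number but held most of the counts. There were 293 of them (17.1% of the members), with 52.1% of the counts, and 8 of the 10 most counted members were among them. Of the 293, 84.0% began with C. They took from 7.60% of the member CPM, in Express617 replicate 3 at OS30, to 88.3%. The members were not matched to tRNA genes, for which no reference was at hand. Useq_1, which ends in CCA, had 555, 1133 and 895 CPM in Express617 leaves and 648, 1437 and 870 CPM in G3D001 leaves. In ovules it had 716, 536 and 461 CPM in Express617 at OS15, and 684, 703 and 396 CPM in G3D001 at OS15. The genotypes overlapped at both stages, and the log2 difference between the parents was -0.20 ± 0.26 (SE) in leaves and -0.06 ± 0.25 at OS15. At OS30, Useq_1 was higher in Express617 against the totals, by 0.71 ± 0.29 (adjusted p = 0.0423). With TMM it was lower, at a log2 difference of -1.30 (adjusted p = 0.00402), so its call changed side with the scaling.

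The replicate-limited pattern and the G3D001 and F1 pattern lay in different length classes of the unplaced sequences. The same description applied to all 10201 sequences put 1173 in the replicate-limited pattern, of which 905 had 21 bases and 200 had 22. The 21-base class held 77.2% of them, and both classes together 94.2%. As a share of each length, the pattern took 52.8% at 21 bases, 17.5% at 22, 5.18% at 20 and 1.15% at 24, and no sequence of 23 bases. The G3D001 and F1 pattern was spread the other way, with 10.8% of the sequences at 21 bases, 31.7% at 22, 32.5% at 23 and 53.5% at 24. Of the 185 members with this pattern, 95.1% overlapped an unplaced 24-base sequence.

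**Figure D3:**
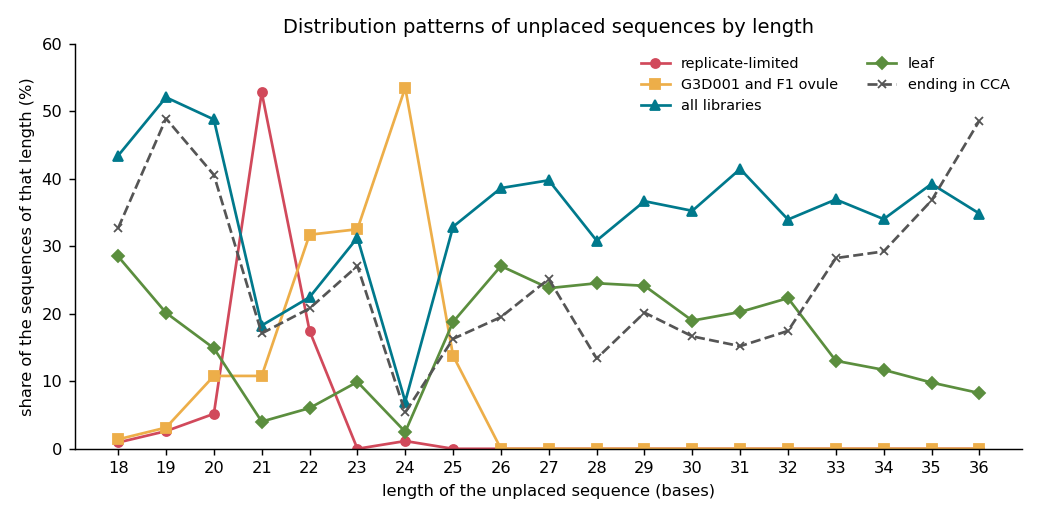
Percent of the unplaced sequences of each length (in bases) that were replicate-limited, in G3D001 and F1 ovules, in all libraries or in leaves, and the percent ending in CCA. The replicate-limited share is 52.8% at 21 bases and 1.15% at 24, while the G3D001 and F1 share is 10.8% at 21 bases and 53.5% at 24.

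The sums of the G3D001 and F1 pattern were steady between replicates, though its description requires a count in every G3D001 ovule library. Its 185 members summed to 1138, 1076.4 and 1101 CPM in G3D001 at OS15 and to 1316, 1623 and 1419 CPM at OS30. In F1 the sums were 783, 855 and 770 CPM at OS15 and 421, 448 and 465 CPM at OS30. Within each stage the G3D001 and F1 sums did not overlap. The ratio of the F1 mean to the G3D001 mean was 0.726 at OS15 and 0.306 at OS30, and the ratio was lower at OS30 for 180 of the 185. The median log2 difference of F1 from G3D001 over these members was -0.51 at OS15 and -1.79 at OS30, and with TMM scaling (the trimmed mean of M-values, which sets the typical entry of 2 libraries equal) it was -0.09 and -3.68. The median was thus below 0 under both scalings, near 0 at OS15 with TMM, and further from 0 at OS30.

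Useq_104 and Useq_68 were the most abundant examples among the members chosen for the parental comparison. Neither had a count in any leaf library or in any Express617 ovule library. Useq_104 had 47.3, 55.5 and 51.1 CPM in G3D001 and 38.6, 39.5 and 35.1 CPM in F1 at OS15. At OS30 it had 53.1, 51.6 and 44.6 CPM in G3D001 and 7.92, 10.9 and 8.57 CPM in F1, so all F1 libraries at OS30 were below those at OS15, while those of G3D001 overlapped. Useq_68 had 106, 54.3 and 93.7 CPM in G3D001 at OS30 and 44.4, 40.8 and 48.4 CPM in F1. In F0, the highest level of either was 0.06 CPM.

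Sequences found in 1 parent alone were followed into the offspring, which asks whose RNA the hybrids carry. Members with at least 1 CPM in all 3 libraries of 1 parent and listed at 0 in all 3 of the other were taken at each stage. At OS15, 169 members were in G3D001 alone by this description. All 169 were counted in all 3 F1 libraries, with a ratio of the summed CPM to that in G3D001 of 0.702. In F0 only 3 of them were counted in every library, 156 were counted in none, and the ratio was 0.000987. At OS30 there were 187 such members, with a ratio of 0.329 in F1 and 0.0335 in F0, where 160 were counted in none and 12 in every library. All these ratios are against the cluster totals. For the G3D001 and F1 pattern, given above, the size of the F1 difference at each stage changed with TMM. So the G3D001 sequences were present in the selfed F1 ovules and nearly all below detection in the ovules that G3D001 had pollinated, at both stages.

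Few members were found in Express617 alone. By definition all members lack a position on the assembly of Express617 itself, so the parents are not on an equal footing in these numbers. The part of this in the numbers was not tested. There were 5 at OS15, which summed to 31.1, 25.4 and 26.7 CPM in Express617, 23.9, 19.8 and 24.05 CPM in F0 and 6.92, 3.85 and 5.24 CPM in F1. At OS30 there were 8, with ratios to Express617 of 0.592 in F0 and 0.387 in F1. In F0 these members were thus nearer to the seed parent than in F1. In leaves, 7 members were in Express617 alone and 17 in G3D001 alone, all counted in all 3 F1 libraries, with ratios of 0.506 and 0.474. The F1 leaf sums for these 17 were 42.5, 43.3 and 39.6 CPM, against 87.3, 92.6 and 84.8 CPM in G3D001.

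The parents were then compared entry by entry, with edgeR's quasi-likelihood test fitted on all entries and Benjamini-Hochberg adjustment over all of them at 0.05. In leaves, 26 of the 555 members tested were higher in Express617, against 6.69% of all entries, and 57 were lower, against 7.28%. The members' shares were 4.68% and 10.3%. At OS15, 122 of 1625 were higher (background 7.16%) and 233 were lower (background 9.69%), which are 7.51% and 14.3% of the members. Of the lower calls, 185 were the G3D001 and F1 pattern, whose description uses these libraries. Of the 122 higher calls at OS15, 64 were replicate-limited, and none of those had parental libraries that did not overlap. Counting only calls whose parental libraries did not overlap gave 57 higher (background 7.03%) and 228 lower (background 9.53%) at OS15, and 26 higher (6.56%) and 48 lower (7.12%) in leaves.

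The count of higher calls at OS15 moved with single libraries. It was 226 without Express617 replicate 1, 70 without Express617 replicate 3, 68 without G3D001 replicate 1, 64 without G3D001 replicate 3 and 511 without F1 replicate 2, which enters through the shared spread. It was 28 without the 10 libraries that held the replicate-limited members. The lower calls lay between 220 and 242 as single libraries were left out, and were 211 without the 10 libraries.

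At OS30 the call depended on how libraries were scaled. Against the cluster totals, 1081 of 1650 members (65.5%) were higher in Express617 where 74.1% of all entries were, and 283 (17.2%) were lower where 8.65% were. The median entry of the whole table was 1.93 higher in Express617 on the log2 scale, and with TMM this median was -0.08. With TMM, 50 members were higher (background 25.5%) and 497 lower (background 32.3%). Of the 1081 higher calls, 850 were replicate-limited, and 58 of those had libraries that did not overlap. Without overlap there were 258 higher (background 72.0%) and 260 lower (background 7.93%) in all. The higher calls numbered 372 without Express617 replicate 3, 515 without G3D001 replicate 1 and 225 without the 10 libraries that held the replicate-limited members. The lower calls lay between 274 and 288 as single libraries were left out. The members ending in CCA changed side with the scaling, with 188 higher and 18 lower against the totals and 12 higher and 141 lower with TMM.

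The members named for the parental difference were chosen among those whose parental libraries did not overlap. In leaves, Useq_587 had 9.23, 14.1 and 10.2 CPM in G3D001, 5.83, 5.31 and 4.02 CPM in F1 and no count in Express617, which puts it at least 185-fold lower in Express617 (adjusted p = 2.03e-07). Useq_1031 and Useq_986 were at least 154-fold and 127-fold lower there by the same floor of 3 counts over the group. In the other direction, Useq_371 had 3.72, 6.65 and 4.90 CPM in Express617 leaves and 2.89, 2.55 and 2.90 CPM in F1, with no count in G3D001, at least 78.3-fold higher (adjusted p = 6.34e-07). Useq_201, with a log2 difference of 8.28 ± 0.67, and Useq_643, at least 45.5-fold higher, were the other leaf members named. Useq_201, Useq_371 and Useq_643 all end in CCA and begin with C, while none of the 3 lower ones ends in CCA.

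In ovules, the members named as higher in Express617 were also counted in every F0 library of the stage given. Useq_499 had 11.3, 10.4 and 12.5 CPM in Express617 at OS15, 7.08, 8.04 and 7.26 CPM in F0, 1.05, 1.03 and 0.683 CPM in F1 and no count in G3D001, where it was at least 177-fold lower. Its F0 libraries all lay below those of Express617 and above those of F1. Useq_424 had 8.07, 8.20 and 8.38 CPM in Express617 at OS30, 8.11, 6.83 and 7.38 CPM in F0, 0.729, 0.509 and 0.702 CPM in F1 and at most 0.0426 CPM in G3D001. For Useq_424 the Express617 and F0 libraries overlapped at OS30, and both were above F1. Useq_573 was higher at OS15, and Useq_407 and Useq_411 at OS30, with log2 differences of 7.35 ± 0.67, 6.28 ± 0.41 and 8.65 ± 0.58. In F0 at those stages they had 4.68, 3.55 and 5.67 CPM, 5.59, 2.35 and 2.86 CPM, and 7.75, 4.80 and 4.76 CPM, each overlapping Express617. Lower in Express617 ovules were Useq_104 and Useq_68, given above, with Useq_197 at OS15 and Useq_345 and Useq_162 at OS30. Useq_162, unlike the others, was also counted in G3D001 leaves, at 4.62, 14.1 and 8.48 CPM, and in F0 at OS30, at 6.69, 8.71 and 8.38 CPM.

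**Figure D4:**
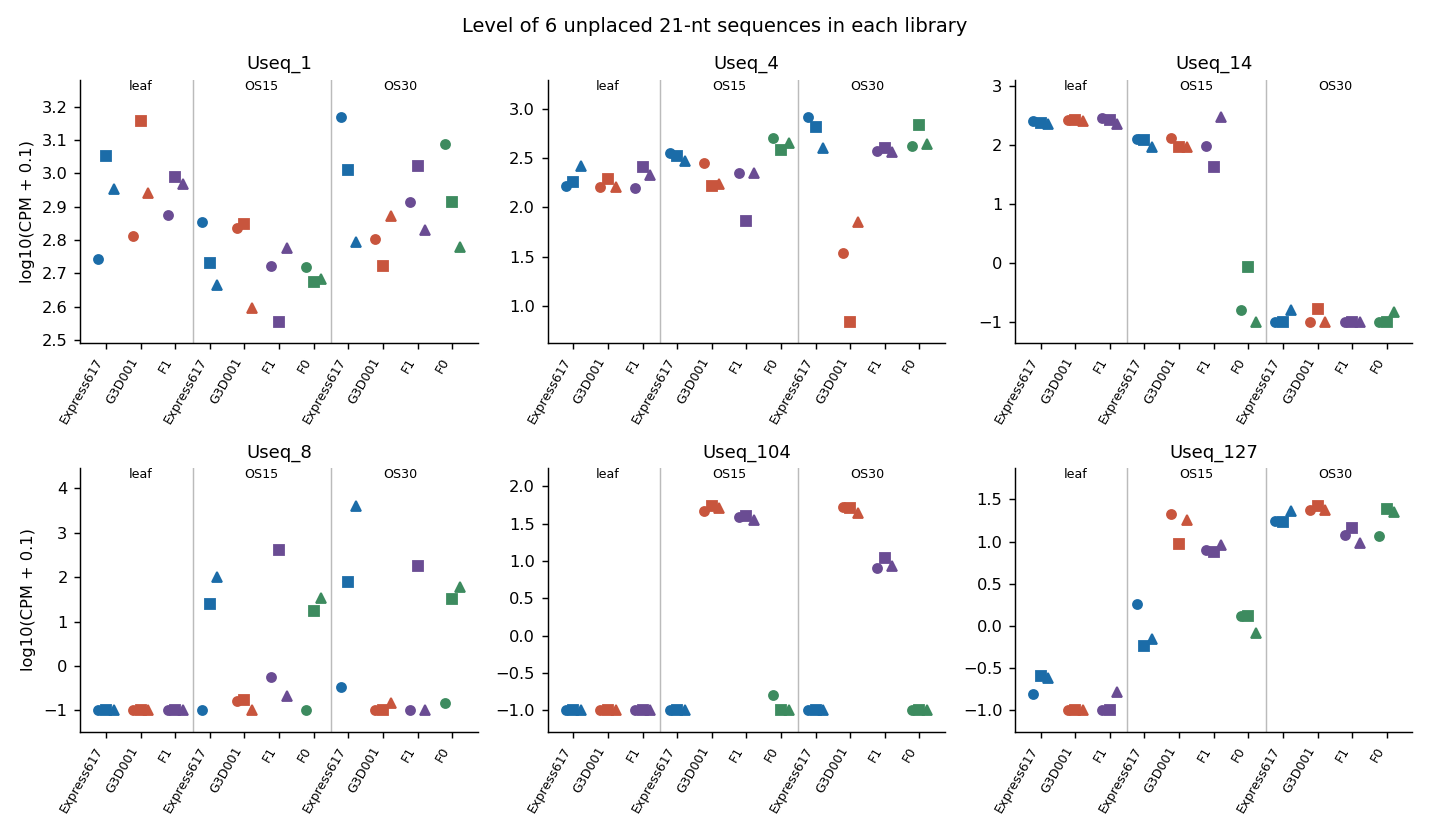
CPM of Useq_1, Useq_4, Useq_14, Useq_8, Useq_104 and Useq_127 in every library on a log10(CPM + 0.1) scale, so that -1 is no count, by stage (colour is genotype, marker shape is replicate). Useq_104 is high in G3D001 and F1 ovules alone, Useq_14 is at or near 0 in F0 at OS15 and in every library at OS30, and Useq_8 is high in some replicates of a group and near 0 in others.

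The hybrids were compared with each parent in 5 trios of 9 libraries. In leaves, 68 of 555 members were higher and 5 lower in F1 than in Express617 (backgrounds 8.49% and 0.541%, and 9.03% in either direction). Against G3D001, 47 were higher and 23 lower (backgrounds 6.67% and 0.436%, and 7.11% in either). At OS15, F1 had 215 higher and 46 lower than Express617 (backgrounds 5.33% and 2.4%, and 7.72% in either). It had 34 higher and 27 lower than G3D001 (backgrounds 2.49% and 3.65%, and 6.15% in either). F0 at OS15 had 0 higher and 5 lower than Express617 (backgrounds 0.016% and 0.03%, and 0.046% in either). It had 161 higher and 252 lower than G3D001 (backgrounds 7.66% and 10.7%, and 18.3% in either). Of the F0 members at OS15, 54 had an unadjusted p under 0.05 against Express617 with edgeR, and DESeq2, another count model with its own scaling, called 0 higher and 3 lower. At OS15 the counts for F1 were thus larger against the seed parent, and those for F0 were larger against the pollen parent. The same order held over all entries, at 7.72% against 6.15% for F1 and 0.046% against 18.3% for F0, so it is not particular to the members. The count for F0 against Express617 ranged from 1 to 8 as single libraries were left out. For F1 against G3D001 it was 36 without G3D001 replicate 1 and 39 without either F1 replicate 1 or F1 replicate 2, and 28 without the 10 libraries.

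At OS30, F1 had 213 members higher and 25 lower than Express617 (backgrounds 7.6% and 7.15%, and 14.7% in either). It had 152 higher and 257 lower than G3D001 (backgrounds 73.7% and 7.08%, and 80.8% in either). With TMM, the counts against G3D001 were 21 higher and 525 lower (backgrounds 22.8% and 28.1%). F0 had 15 higher and 0 lower than Express617 (backgrounds 1.6% and 0.632%, and 2.23% in either). It had 264 higher and 275 lower than G3D001 (backgrounds 75.0% and 7.25%, and 82.3% in either), which became 26 higher and 488 lower with TMM (backgrounds 21.5% and 27.2%). Without Express617 replicate 3 the count for F0 against G3D001 was 924 in either direction, in place of 539. For F0 against Express617 at OS30, 443 members had an unadjusted p under 0.05 with edgeR, and DESeq2 called 27 higher and 5 lower. The comparisons within a trio share libraries, so their counts are not independent of each other.

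These calls were joined into expression level dominance patterns. A member is maternal or paternal dominant where the parents differ and the hybrid differs, in the same direction, from the other parent only, additive where it lies between both and differs from both, and transgressive where it is above or below both. In F1 leaves, 90 members had a pattern. Of these, 27 were maternal (30.0%, against 45.0% of all entries with a pattern), 29 paternal (32.2%, against 46.2%), 12 additive (13.3%, against 2.20%), 19 transgressive up (21.1%, against 5.98%) and 3 transgressive down (3.33%, against 0.648%). The additive count was 27 with TMM and 24 with DESeq2, and the transgressive up count was 8 with DESeq2 and 2 with the robust fit (edgeR's fit that moderates variable entries apart), so both depended on the fit. In F1 ovules at OS15, 229 of 288 were paternal dominant, which is 79.5% against 46.4% of all entries with a pattern, and 166 of the 229 were members of the G3D001 and F1 pattern. Members lack a position on the Express617 assembly by definition, whereas most entries have one. The 2 shares are therefore not on an equal footing, and the part of this was not tested. With DESeq2, 202 of 428 were paternal dominant (47.2%, against 44.2% of all entries) and 205 maternal dominant (47.9%, against 30.4%), and 164 of these 205 were replicate-limited. In F1 ovules at OS30, 191 of 428 were maternal dominant and 182 were additive, 44.6% and 42.5% against 81.6% and 11.4% of all entries, and 152 of the 182 were of the G3D001 and F1 pattern. Most members of that pattern were thus called paternal dominant at OS15 and additive at OS30. With TMM, 272 of 504 were maternal dominant and 218 additive at OS30. In F0, 385 of 390 members were maternal dominant at OS15 (98.7%, and 99.7% of all entries) and 500 of 515 at OS30 (97.1%, and 97.2% of all entries). At each stage 185 of them were of the G3D001 and F1 pattern, whose description keeps F0 near 0 too.

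The transgressive member with the smallest p was taken in each trio. Useq_14 was called lower in F0 at OS15 than in both parents. It had 0.06, 0.731 and 0 CPM in F0, against 128, 123 and 90.9 CPM in Express617, 129, 91.6 and 91.4 CPM in G3D001 and 97.5, 42.2 and 300.4 CPM in F1. All 3 F0 libraries lay below all 9 others, with a log2 difference of -8.67 ± 0.74 from Express617 (adjusted p = 7.79e-05, and 0.168 with the robust fit). Useq_184 was called above both parents in F1 leaves, with 0.566, 52.4 and 205 CPM against at most 0.129 CPM in the parents, so its replicates ranged widely, and it was listed at 0 in all 24 ovule libraries. With the robust fit its adjusted p against G3D001 was 0.0591.

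Useq_292 was called above both parents in F0 at OS30, at 62.1, 10.3 and 9.95 CPM, with 4.41, 4.88 and 1.96 CPM in G3D001 and 0 in Express617. Its adjusted p against G3D001 was 0.00775, 0.377 with TMM and 0.0506 with the robust fit. Useq_1348 was above both parents in F1 at OS15, with 1.63, 3.09 and 2.73 CPM against 0.550, 0.358 and 0.625 CPM in G3D001 and 0 in Express617. Useq_468 was below both in F1 at OS30, with 2.77, 3.05 and 2.44 CPM against 5.34, 5.35 and 5.99 CPM in Express617 and 5.90, 6.53 and 4.65 CPM in G3D001. Neither of these overlapped with the parents.

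Development was examined next. The summed CPM of the members did not differ detectably between leaves and OS15 over the 3 genotypes sampled at both (1.07-fold, p = 0.668, exact permutation test within genotypes, two-sided). Without the replicate-limited members, which lie in ovules by their description, the log2 difference was -0.26. From OS15 to OS30 the sum rose 1.57-fold over the 4 genotypes (p = 0.0186, exact permutation test), and 1.38-fold without the replicate-limited members. No p is given without those members, since their list was drawn from these same libraries. The sums were taken against total counts and not with TMM, under which most member calls between OS15 and OS30 changed direction (below). The 1.57-fold rise did not pass without the 10 most counted members (p = 0.091, exact permutation test) or as a median of log2(CPM + 1) over the members (p = 0.447). The 1.57-fold call also moves with single libraries. Its p was 0.0535 and 0.0517 without Express617 replicate 1 or 2 at OS15, 0.0584 and 0.0534 without F1 replicate 1 or 3 at OS15, and 0.0596 without F1 replicate 2 at OS30. Without Express617 replicate 3 at OS30 the rise was 1.33-fold (p = 0.0294, exact permutation test).

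Between the parents, 3 libraries against 3 cannot give a p under 0.1, so no difference in the sums could pass the test. The Express617 sum was 0.885 of that in G3D001 in leaves (p = 0.5, exact permutation test) and 1.14-fold that at OS15 (p = 0.5). At OS30 it was 3.16-fold that in G3D001 with no overlap (p = 0.1, exact permutation test), and 1.16-fold without the replicate-limited members. These sums are against total counts, and none was computed with TMM, under which many parental calls at OS30 changed side. One library moved the value at OS30, which was 1.63-fold without Express617 replicate 3, 4.54-fold without Express617 replicate 1 and 4.28-fold without Express617 replicate 2. Without the replicate-limited members, whose description uses these libraries, Express617 had 10064, 7785 and 5521 CPM and G3D001 had 6892, 5835 and 6969 CPM, so 2 of the 3 Express617 libraries were above all of G3D001 and 1 was below.

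Of single members, 135 were higher and 208 lower at OS15 than in leaves (7.88% and 12.1%, against 16.8% and 30.0% of all entries), and the counts without overlap were 56 and 141 (backgrounds 7.65% and 7.82%). In 1158 of the 1713 there was no count in any leaf library, and 55 had none in any ovule library. Useq_62 had 90.6, 91.1 and 80.6 CPM in Express617 leaves and 5.79, 7.33 and 4.20 CPM in Express617 ovules at OS15, and over the genotypes its log2 difference was -4.02 ± 0.18 (adjusted p = 1.84e-17). Useq_192 and Useq_164 were also lower, with differences of -4.87 ± 0.20 and -4.71 ± 0.21 on the same scale. Higher at OS15 were Useq_118, Useq_89 and Useq_353, all without a count in any leaf library. Useq_89 had 9.54, 9.68 and 10.6 CPM in Express617 and 18.3, 22.8 and 23.6 CPM in G3D001 at OS15.

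From OS15 to OS30, 196 members (11.4%) were higher, against 78.2% of all entries, and 94 (5.49%) were lower, against 6.12%. The median entry of the table rose by 2.58 on the log2 scale against the totals and by 0.32 with TMM. With TMM, 12 members were higher (background 41.2%) and 428 lower (background 27.5%), so the direction of most calls changed with the scale. Without overlap between the stages there were 27 higher (background 34.0%) and 8 lower (background 1.90%). Of the 10 most counted members, 6 were higher and 0 lower against the totals, and 0 higher and 9 lower with TMM or with DESeq2. Among the 293 members ending in CCA, 138 were higher and 20 lower against the totals, and 1 higher and 252 lower with TMM.

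Some members kept their direction under both scalings. Useq_14 fell from OS15 to OS30 by 10.6 on the log2 scale against the totals and by 12.4 with TMM. At OS30 none of the 12 libraries exceeded 0.061 CPM, whereas Useq_14 had 251, 232 and 226 CPM in Express617 leaves, 264, 266 and 257 CPM in G3D001 leaves and 285, 270 and 223 CPM in F1 leaves. It was thus present in leaves, where the genotypes overlapped, lower at OS15 in all libraries but 1 of F1, and at the limit of detection at OS30. Useq_252 and Useq_86 also fell, by 2.89 and 1.93 against the totals. Useq_192 rose by 3.22 ± 0.17 (0.93 with TMM) after its low level at OS15, and Useq_1116 by 4.76 ± 0.30 (2.57 with TMM). Useq_649 rose by 2.70 ± 0.19 against the totals, and by 0.41 with TMM (adjusted p = 0.0772).

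The change from OS15 to OS30 differed between the parents for 53 members that moved higher in G3D001 relative to Express617, against 2.72% of all entries, and for 77 that moved lower, against 46.7% (3.09% and 4.50% of the members). With TMM these counts were 158 and 2 (backgrounds 13.8% and 6.15%). The count of lower calls was 40 without Express617 replicate 3 at OS15, 36 without G3D001 replicate 2 at OS15, 43 without Express617 replicate 1 at OS30 and 46 without G3D001 replicate 2 at OS30. Useq_118 moved oppositely in the parents under the totals, from 21.3, 17.3 and 15.0 CPM to 12.3, 11.2 and 11.9 CPM in Express617 and from 12.03, 8.02 and 9.25 CPM to 24.1, 24.1 and 22.5 CPM in G3D001. The difference of its changes was 1.87 ± 0.28 (adjusted p = 2.22e-05) and 3.82 with TMM, so it kept its sign. Useq_280 and Useq_945 were the other members named as higher, at 2.94 ± 0.44 and 3.65 ± 0.62.

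Lower in G3D001 relative to Express617 were Useq_127, Useq_622 and Useq_4. Useq_127 went from 1.70, 0.484 and 0.592 CPM to 17.3, 16.8 and 23.2 CPM in Express617, and from 21.2, 9.37 and 18.2 CPM to 23.9, 26.7 and 23.4 CPM in G3D001, with a difference of -3.77 ± 0.54 (-1.85 with TMM, adjusted p = 0.0121). Its levels at OS30 thus lay closer together than those at OS15. Useq_4, the fourth most counted member, went from 357, 334 and 293 CPM to 827, 650 and 403 CPM in Express617 and from 283, 165 and 174 CPM to 34.8, 6.89 and 72.0 CPM in G3D001. Its difference was -3.38 ± 0.66 against the totals and -1.48 with TMM (adjusted p = 0.101). Useq_4 does not end in CCA, and in F1 it had 377, 401 and 363 CPM at OS30, between the parents but above every G3D001 library.

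The first base of the members also moved with stage. Over all members, 624 began with U (36.4%), 567 with C (33.1%), 483 with A (28.2%) and 39 with G (2.28%). Weighted by CPM, the share beginning with U differed at OS15 from that in leaves by 8.18 percentage points, and that with A by 6.74 points. The share with C differed by -13.2 points and that with G by -1.71 points. For U, A, C and G the adjusted p were 0.002, 0.0075, 0.00667 and 0.002 (exact permutation test within genotypes, over 8 tests of first base and stage). Without the replicate-limited members the differences had the same signs and were smaller for U, A and C, at 3.79, 3.26 and -5.37 points, and G differed by -1.67 points. The list of those members was drawn from these same libraries and lies in ovules by description, so values without it are given without p. From OS15 to OS30 no first base passed the test, with differences of 1.79 points for U, -1.30 for A, -0.56 for C and 0.08 for G. Without the replicate-limited members, C differed by 4.10 points and A by -3.24 points from OS15 to OS30, so the differences at this step depended on those members.

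**Figure D5:**
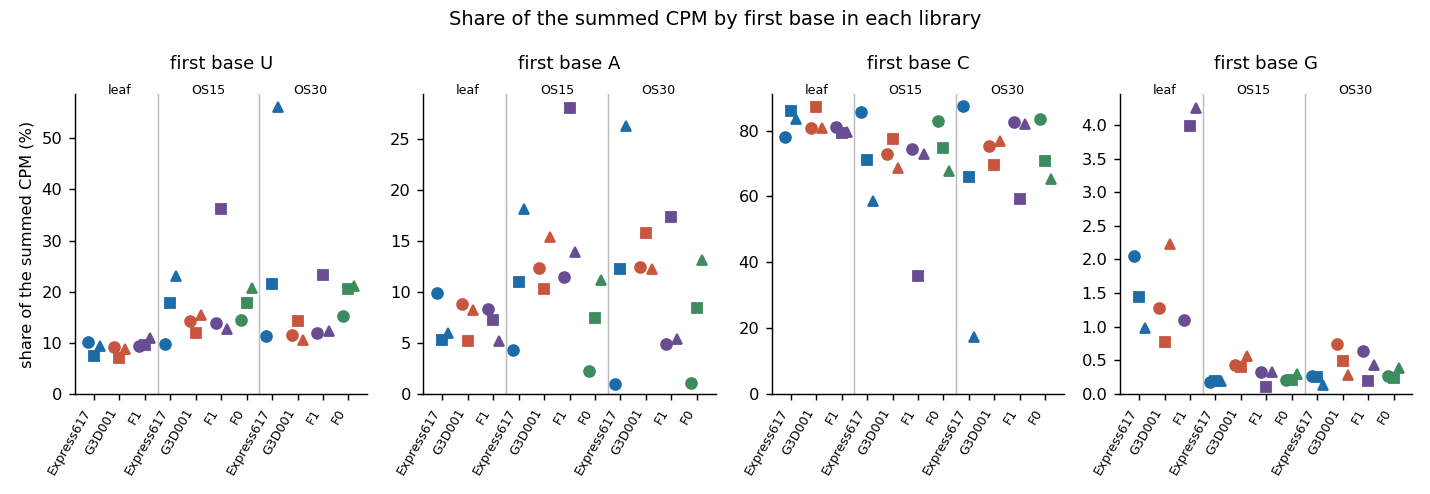
Percent of the summed member CPM that began with A, C, G or U in each library, by stage, each point being 1 library. The share beginning with U differed at OS15 from that in leaves by 8.18 points on average, and that beginning with C by -13.2 points.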

How the data were processed

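sRNA was sequenced from 33 libraries. The authors removed reads under 18 bases with seqtk and ran ShortStack on the Express 617 assembly, the genome of 1 parent, and deposited 1 table of raw counts per cluster or sequence, with no normalization. The authors' counts were used as deposited. Sequence entries carry 1 empty field more than the others, which was allowed for. No column of another series was present (0 columns). Members were entries with a sequence of 21 bases. The members and lists were chosen with earlier results of these data known. CPM were taken against the cluster counts of a library.

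Counts of all entries were fitted with edgeR 4.0.16 (quasi-likelihood, R 4.3.3) without a minimum count, as 1 fit per trio for the parents and hybrids and 1 fit over the groups for stages, with Benjamini-Hochberg adjustment at 0.05. Library sizes were the cluster totals. The SE after ± is the absolute log2 difference over the square root of the F statistic. It can be too small where a group has almost no counts. For Useq_201 the leaf difference ran from 7.75 to 10.2 as single libraries were left out. Entries with no count in the libraries of a fit were left out. Summed CPM and first base shares were compared by permutation of library labels within genotype. The members named were the 10 most counted, the 3 smallest p in each direction of each comparison (for the parents, among members whose libraries did not overlap), and 1 transgressive member per trio. Alternatives were TMM scaling, DESeq2 1.42.0, a minimum of 10 counts in 3 libraries, a minimum log2 fold change of 1, totals over all entries, a replicate block, and leaving out single libraries. A robust fit, leaving out 10 ovule libraries and leaving out the replicate-limited members were chosen after seeing the data. On simulated counts with the libraries of the parents at OS30 the test recovered 3% of 2-fold and 83% of 4-fold changes. For OS30 against OS15 it recovered 81% and 100%, and for the difference between the parents 1% and 17%. The simulated counts had the same spread for every entry, and only 100 entries per fold, none with low counts, were changed. These rates therefore do not describe members as uneven between replicates as the replicate-limited ones. Floors are 3 counts over a group and cover counting error only. Members were not matched to microRNAs or to a genome, and their sequences are not shown. Python 3.11.15 was used for the rest.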

Additional observations from a re-analysis of the deposited data

Results flagged for a closer look

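The change from OS15 to OS30 differed between G3D001 and Express617, by the test of the difference itself, for 53 members that moved higher in G3D001 relative to Express617 and for 77 that moved lower, of 1713 tested. These are 3.09% and 4.50% of the members, where 2.72% and 46.7% of all entries were called, so the share of higher calls is near that of the table and the share of lower calls is below it. Useq_280, Useq_118 and Useq_945 were the members with the smallest p among the 53, and Useq_127, Useq_622 and Useq_4 among the 77. Of the 77, 53 ended in CCA, and none of the 53 higher members did (0 members), but with TMM 52 members ending in CCA were higher and 1 lower, so this split reversed with the scaling. Without the 10 ovule libraries that held the replicate-limited members, 12 were higher and 16 lower, and with TMM 158 and 2. No cause was tested.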

How the results depend on the processing

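Cluster totals, TMM and DESeq2 scale the OS30 libraries differently, and the table cannot tell which is right. The members higher in Express617 at OS30, and the stage and interaction calls, depend on that choice, and depth limits members near 1 CPM. The summed CPM were not computed with TMM or DESeq2 scaling, so their dependence on it was not tested. With TMM the members called between the parents at OS30 were 50 higher and 497 lower, between OS30 and OS15 12 higher and 428 lower, and for the difference between the parents 158 and 2. With DESeq2 they were 255 and 487, 17 and 648, and 182 and 14. DESeq2 also gave 224 higher between the parents at OS15, 738 higher at OS15 than in leaves, and, in either direction, 238 for F1 against G3D001 at OS15, 3 for F0 against Express617 at OS15, 669 for F1 against G3D001 at OS30 and 32 for F0 against Express617 at OS30. With a minimum of 10 counts, 70 and 683 were higher in Express617 at OS15 and OS30, and 101 differed between F1 and G3D001 at OS15. With the robust fit these 3 counts were 69, 243 and 93. Without the 10 ovule libraries they were 28, 225 and 28, with 1 and 244 for F0 against Express617 and G3D001 at OS15, 132 and 0 for F1 and F0 against Express617 at OS30, and 12 and 16 for the difference between the parents. A log2 fold change of at least 1 left 72 higher and 54 lower at OS30 than at OS15. The scaling and the construction of these fits differ from the main one, and the cause of each move was not tested. Apart from TMM, shares of all entries under these fits are not given here. These counts therefore cannot be read as particular to the members.

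A replicate block gave more calls at the ovule stages, with 592 higher in Express617 at OS15, 573 and 467 for F1 against Express617 and G3D001 at OS15, 16 and 964 for F0 against them at OS15, 513 for F1 against Express617 at OS30, and 433 and 1239 for F0 against Express617 and G3D001 at OS30. The block changed no other count by over 1.5 times. Shares of all entries with the block are not given here, so the added calls cannot be read as particular to the members. Libraries of 1 number correlated over 0.1 in 13 of 45 pairs of genotypes over the clusters (20 over the members). Pairs of unlike number did so in 6 of 90 (19 over the members). Between stages it was 4 of 30 pairs of 1 number (12 over the members) and 2 of 60 of unlike number (13 over the members). Pairs of 1 number thus passed 0.1 at a larger share, though not every pair did, and the main fits hold no replicate block. A replicate's code recurs at every stage, but what it stands for is not given. Between stages the block gave 131 higher and 219 lower at OS15 than in leaves, and 198 and 91 at OS30 than at OS15.

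Without the replicate-limited members the log2 difference in summed CPM was -0.26 for OS15 against leaves and -0.24 between the parents at OS15, both of reversed sign, and from OS15 to OS30 the share beginning with U differed by -0.96, A by -3.24 and C by 4.10 points. The rise in summed CPM from OS15 to OS30 was 0.65 without the 10 most counted members (p = 0.091, permutation test) and 0.31 as a median of log2(CPM + 1) (p = 0.447), neither past the threshold.

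With single libraries left out, higher calls in Express617 ran from 64 to 511 at OS15 and from 372 to 1086 at OS30. Calls for F1 against G3D001 at OS15 ran from 36 to 75, for F0 against Express617 at OS15 from 1 to 8, and for F0 against G3D001 at OS30 from 429 to 924. Lower calls for the difference between the parents ran from 36 to 111. The log2 difference in summed CPM ran from -0.062 to 0.18 for OS15 against leaves, from 0.41 to 0.78 for OS30 against OS15, from -0.0011 to 0.33 between the parents at OS15, and from 0.70 to 2.18 between them at OS30. From OS15 to OS30 the first base shares ran from -1.52 to 4.09 points for U, -2.95 to 0.23 for A, -4.38 to 4.39 for C and 0.046 to 0.10 for G. The lowest and highest for U, A and C were reached without Express617 replicate 3 or replicate 1 at OS30.

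Among the single members named, Useq_649 (adjusted p = 0.0772), Useq_4 (0.101) and Useq_292 against G3D001 (0.377) lost their call with TMM. With the robust fit Useq_14 against Express617, Useq_184 against G3D001 and Useq_292 against both parents lost theirs.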
